A study of Mus musculus with 12 samples.

Results

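The C-type lectin receptors of myeloid cells were examined as a group of 10 genes, Clec4a1, Clec4a2, Clec4a3, Clec4b1, Clec4d, Clec4e, Clec4n, Clec7a, Clec10a and Clec12a, out of 55573 genes in the count table. Their Ensembl identifiers were matched to these symbols by name. The group was chosen after Clec4a2 and Clec4a3 had been seen to be higher with vitamin B12 in these same 12 libraries. Because the members were selected on the B12 readout, their B12 differences, and the counts of them past the adjusted threshold, are given as descriptions without a p-value, and tests are kept to comparisons that the choice did not use.

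The study asked how B12 supplementation changes transcription at an early stage of reprogramming. Mouse embryonic fibroblasts (MEFs) of strain C57BL/6, taken from 3 E13.5 embryos and called clones 1 to 3, carried a doxycycline-inducible cassette of Oct4, Sox2, Klf4 and Myc (OSKM), the factors that reprogram fibroblasts to pluripotency. Cells of each embryo were kept for 72 h in iPSC medium in 4 groups, which were MEF (no doxycycline and no added B12), MEF+B12 (2 µM B12), OSKM (1 µg/ml doxycycline) and OSKM+B12 (both), with 3 libraries in each group. The uninduced cells carried the cassette too but received no drug, so that the effects of doxycycline and of the factors cannot be told apart. The labels give the tissue only as mouse embryo.

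The libraries held 56971244 to 79236795 counts, and 9 of the 10 receptors passed the filter on low counts that kept 19174 genes for testing. Pou5f1, which encodes Oct4, reached 18.5 to 20.7 CPM (counts per 1e6 counts of a library) with induction in clones 1 and 2, but in clone 3 only 2.86 CPM without and 2.34 CPM with B12. Clone 1 differed from the other clones in its sex genes, with Xist at no more than 0.0289 CPM against at least 219 CPM, and its library titles carry a later year. Embryo, sex and title year cannot be told apart for clone 1. Its OSKM library stood apart in pseudogenes. Over 1519 of them, the SD of its log2 difference from the mean of the remaining libraries of clone 1 was 0.548, and the same SD was 0.112 to 0.243 for the other libraries of the series. Calls that change without it are given below.

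C-type lectin receptors are surface proteins with a lectin-like domain, through which macrophages and related cells bind sugars and lipids of microbes and material from dying cells. Activating members signal through an immunoreceptor tyrosine motif, either their own or that of the adaptor Fcer1g, to the kinase Syk and the scaffold Card9, while inhibitory members carry a motif that recruits the phosphatases Ptpn6 and Inpp5d. Their main known sources are macrophages, monocytes, neutrophils and dendritic cells rather than fibroblasts.

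The cultures carried the markers of both cell types. The 9 fibroblast markers, such as Col1a1 and Pdgfra, summed to between 85010 and 136500 CPM. The 14 macrophage markers were all detected and summed to between 1403 and 2581 CPM in MEF, 2054 and 3283 CPM in MEF+B12, 1425 and 2294 CPM in OSKM, and 2152 and 2605 CPM in OSKM+B12. Other blood cell lists were far lower. The 8 dendritic cell markers summed to between 1.76 and 3.86 CPM with Siglech at 0 counts in all libraries, the 9 neutrophil markers to between 0.886 and 1.92 CPM with S100a9 at 0, the 7 mast cell markers to at most 0.398 CPM with Tpsb2, Tpsab1 and Fcer1a at 0, and the 8 lymphocyte markers to at most 0.0861 CPM with Cd3e, Cd3g and Ncr1 at 0. The 6 monocyte markers summed to between 80.2 and 148 CPM, nearly all of it Plac8 with a median of 124.6 CPM, while Ccr2 reached at most 0.163 CPM and Chil3 was at 0 counts. In these bulk samples, more cells of a type and more RNA per cell cannot be told apart.

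Most of the receptor genes lie close to each other. In GRCm38, the 7 Clec4 genes occupy 368 kb of chromosome 6, from 122921848 to 123289870, in the order Clec4a1, Clec4a3, Clec4b1, Clec4a2, Clec4n, Clec4d and Clec4e. Clec12a and Clec7a lie within a further 130 kb of chromosome 6, from 129342691 to 129472779, and Clec10a is on chromosome 11, from 70156197 to 70170834. GENCODE M21 annotates all of them as protein-coding except Clec7a, which it lists as a polymorphic pseudogene. The genes share sequence to different degrees, which matters for reads counted per gene. Of the 31-base words of Clec4b1, 19.0% also occur in other genes, mostly in Clec4a2, and the share was 14.9% for Clec10a, mostly with Mgl2, and 10.3% for Clec4a2. For the other 7 members it was between 0% and 2.19%. The values of Clec4b1 and Clec10a, and to a lesser extent Clec4a2, are therefore uncertain to the extent that reads could be split between copies. The exons of the 10 genes overlapped no other gene on the same strand.

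The promoters of 5 members are shown because they cover the range of B12 and induction differences described below. Each is the 120 bases before a RefSeq start site in GRCm38.p6, written 5′ to 3′ on the strand of the gene. For Clec4a3 and Clec7a, which each have 2 such starts, the window of the one further downstream is shown. Capitals mark matches on either strand to GAGGAA, the core of the site of the myeloid factor PU.1, to TGANTCA, the AP-1 motif, or to TTGCNNAA, a C/EBP motif, and no 2 matches overlap.
Clec4a2, chr6:123122570-123122689, plus strand: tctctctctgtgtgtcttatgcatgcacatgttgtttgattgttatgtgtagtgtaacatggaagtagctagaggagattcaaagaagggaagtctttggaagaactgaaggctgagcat
Clec4a3, chr6:122952524-122952643, plus strand: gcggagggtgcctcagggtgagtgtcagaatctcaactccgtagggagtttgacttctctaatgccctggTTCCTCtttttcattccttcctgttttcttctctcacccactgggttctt
Clec4e, chr6:123289872-123289991, minus strand: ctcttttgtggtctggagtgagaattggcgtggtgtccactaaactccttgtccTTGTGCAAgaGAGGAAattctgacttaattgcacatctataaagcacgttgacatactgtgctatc
Clec7a, chr6:129472780-129472899, minus strand: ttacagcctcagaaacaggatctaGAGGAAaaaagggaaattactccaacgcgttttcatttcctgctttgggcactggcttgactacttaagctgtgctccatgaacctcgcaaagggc
Clec12a, chr6:129350124-129350243, plus strand: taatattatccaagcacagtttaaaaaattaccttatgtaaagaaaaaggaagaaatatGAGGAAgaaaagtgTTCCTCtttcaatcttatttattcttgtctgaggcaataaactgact
The RefSeq windows of 300 bases, 250 before and 50 after each start, covered 8 of the 10 members. GAGGAA occurred in the windows of 7 of these 8 genes and in those of 31.3% of 27025 genes. Clec4a2, the member with the largest B12 difference, was the gene without it, and its window held TGANTCA at position 32 after the start. TGANTCA occurred in 2 of the 8 members and 8.97% of all genes, and TTGCNNAA in 2 of the 8 members, Clec4e and Clec12a, and 12.2% of all genes. These are matches of letters only, and no binding was measured.

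The receptors spanned a wide range of levels. On the RPKM scale, which is CPM divided by merged exon length in kilobases, averaged over the 12 libraries, Clec4d was highest at 18.5 RPKM, followed by Clec4n at 11.2, Clec4a1 at 4.71, Clec4a2 at 2.87, Clec12a at 2.69, Clec4a3 at 2.06, Clec10a at 0.955, Clec4e at 0.657, Clec7a at 0.556 and Clec4b1 at 0.0722 RPKM. Neighbours in this order had overlapping ranges over the libraries from Clec4d to Clec7a. Clec4d ranged from 9.94 to 30.1 RPKM and Clec4n from 2.97 to 23.8 RPKM, while Clec4e ranged from 0.449 to 0.930 RPKM and Clec7a from 0.295 to 0.800 RPKM. Clec4b1 reached at most 0.129 RPKM, below the lowest value of Clec7a, and had between 1 and 7 counts in each library, so that it could not be tested.

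**Figure D1:**
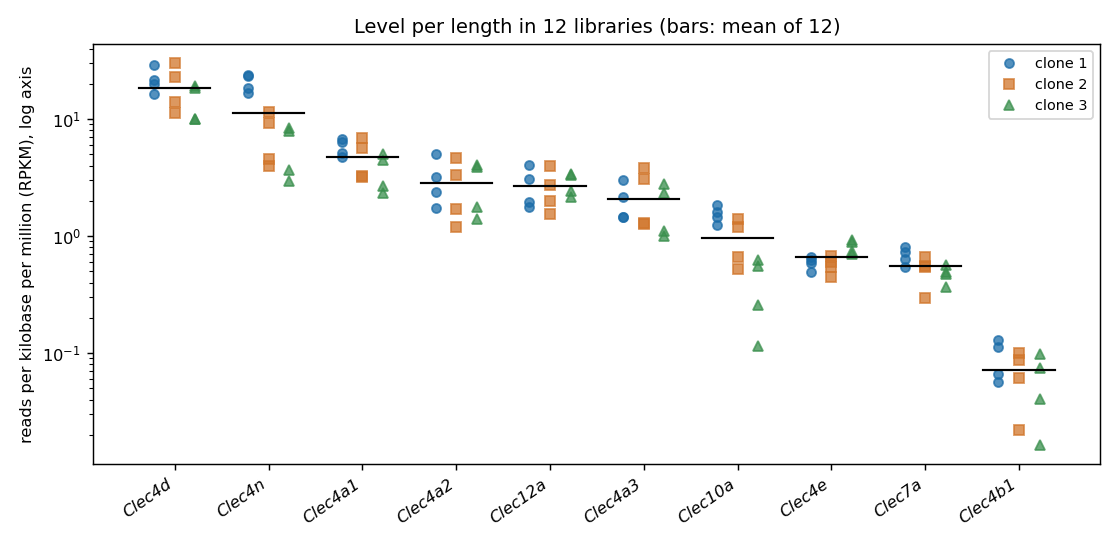
Level of each receptor per length, in RPKM on a log axis, in the 12 libraries. Each point is a library, colour and shape give the clone, bars give the mean of 12, and Clec4n and Clec10a show the widest separation between clones.

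B12 was compared first for the inhibitory receptors. Clec4a2, also called DCIR, carries an inhibitory motif in its cytoplasmic tail. It was at 6.98, 4.95 and 5.16 CPM in MEF and at 14.9, 13.54 and 11.9 CPM in MEF+B12, in clones 1, 2 and 3. In induced cells it was at 5.07, 3.51 and 4.13 CPM in OSKM and at 9.31, 9.79 and 11.4 CPM in OSKM+B12. The 6 libraries with B12 all lay above the 6 libraries without it. Clec4a2 was chosen for its rise with B12, so nothing is read from this separation. The share of all genes that separate in this way was not counted. Averaged over uninduced and induced cells, the log2 difference of Clec4a2 was 1.26 ± 0.10 (SE from the fit, n = 3 clones in each state), the largest among the receptors. Clec12a, an inhibitory receptor for uric acid crystals and dead cells, differed less. It was at 17.1, 15.0 and 13.4 CPM in MEF and 22.4, 21.9 and 18.9 CPM in MEF+B12, where the groups did not overlap. Its values of 9.70, 8.51 and 11.8 CPM in OSKM and 10.7, 10.9 and 18.3 CPM in OSKM+B12 overlapped between the groups. The average log2 difference of Clec12a was 0.44 ± 0.13.

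Clec4a3 and Clec4a1 are close relatives of Clec4a2 with less well known functions. Clec4a3 was at 1.92, 1.72 and 1.34 CPM in MEF and at 3.97, 5.03 and 3.10 CPM in MEF+B12, in clones 1, 2 and 3. It was at 1.94, 1.69 and 1.48 CPM in OSKM and at 2.84, 4.07 and 3.73 CPM in OSKM+B12. As for Clec4a2, all libraries with B12 lay above all libraries without it. Clec4a3 was chosen for the same reason, so nothing is read from its separation either. Its average log2 difference was 1.16 ± 0.13. Clec4a1 ranged from 3.63 to 10.7 CPM, with an average log2 difference of 0.76 ± 0.09. Its clone 1 libraries without B12, at 7.36 and 7.92 CPM, overlapped with the libraries of clone 3 with B12, at 6.99 and 7.91 CPM.

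Among the receptors that signal through Fcer1g, the differences were unequal. Clec4d, also called MCL, and Clec4e, also called Mincle, bind mycobacterial glycolipid and can pair with each other. Clec4d was at 32.1, 22.3 and 16.0 CPM in MEF, 45.9, 48.1 and 29.4 CPM in MEF+B12, 26.0, 17.9 and 15.9 CPM in OSKM, and 34.5, 36.8 and 30.7 CPM in OSKM+B12. Every library with B12 was above its partner of the same clone, and the average log2 difference was 0.81 ± 0.10. Clec4e was at 2.46, 2.72 and 3.47 CPM in MEF, 3.12, 3.32 and 4.62 CPM in MEF+B12, 2.91, 2.23 and 3.67 CPM in OSKM, and 3.28, 2.96 and 4.38 CPM in OSKM+B12. It was also higher with B12 in 6 of 6 pairs of libraries, but its average log2 difference of 0.31 ± 0.08 was the smallest of the 9 receptors tested, and the groups overlapped, with clone 3 the highest in all of them.

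Clec4n, also called Dectin-2, is a receptor for fungal mannans. It was at 23.8, 6.51 and 5.20 CPM in MEF, 33.8, 16.3 and 11.3 CPM in MEF+B12, 26.0, 5.64 and 4.22 CPM in OSKM, and 33.3, 13.03 and 11.8 CPM in OSKM+B12. Its groups overlapped, with clone 1 far above clones 2 and 3, while all 6 pairs were higher with B12 and the average log2 difference was 0.96 ± 0.14. Clec4b1, also called DCAR, was at 0.0128 to 0.0791 CPM without B12 and 0.0482 to 0.101 CPM with it. These values stand for 1 to 7 counts, 5 of 6 pairs were higher with B12, and no fold is given.

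Clec7a, also called Dectin-1, binds fungal beta-glucan and signals through its own motif. It was at 1.92, 1.47 and 1.29 CPM in MEF, 2.11, 1.74 and 1.5 CPM in MEF+B12, 1.42, 0.778 and 0.962 CPM in OSKM, and 1.68, 1.45 and 1.26 CPM in OSKM+B12. The groups overlapped in uninduced and in induced cells, and the average log2 difference was 0.34 ± 0.11. Clec10a, also called MGL1, binds galactose-type sugars. It was at 3.64, 1.52 and 0.331 CPM in MEF, 5.30, 3.46 and 1.79 CPM in MEF+B12, 4.24, 1.94 and 0.744 CPM in OSKM, and 4.62, 4.02 and 1.61 CPM in OSKM+B12. Every library of Clec10a with B12 exceeded its partner, by 0.12 on the log2 scale in induced clone 1 and by up to 2.33 in uninduced clone 3, with an average of 0.94 ± 0.20.

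**Figure D2:**
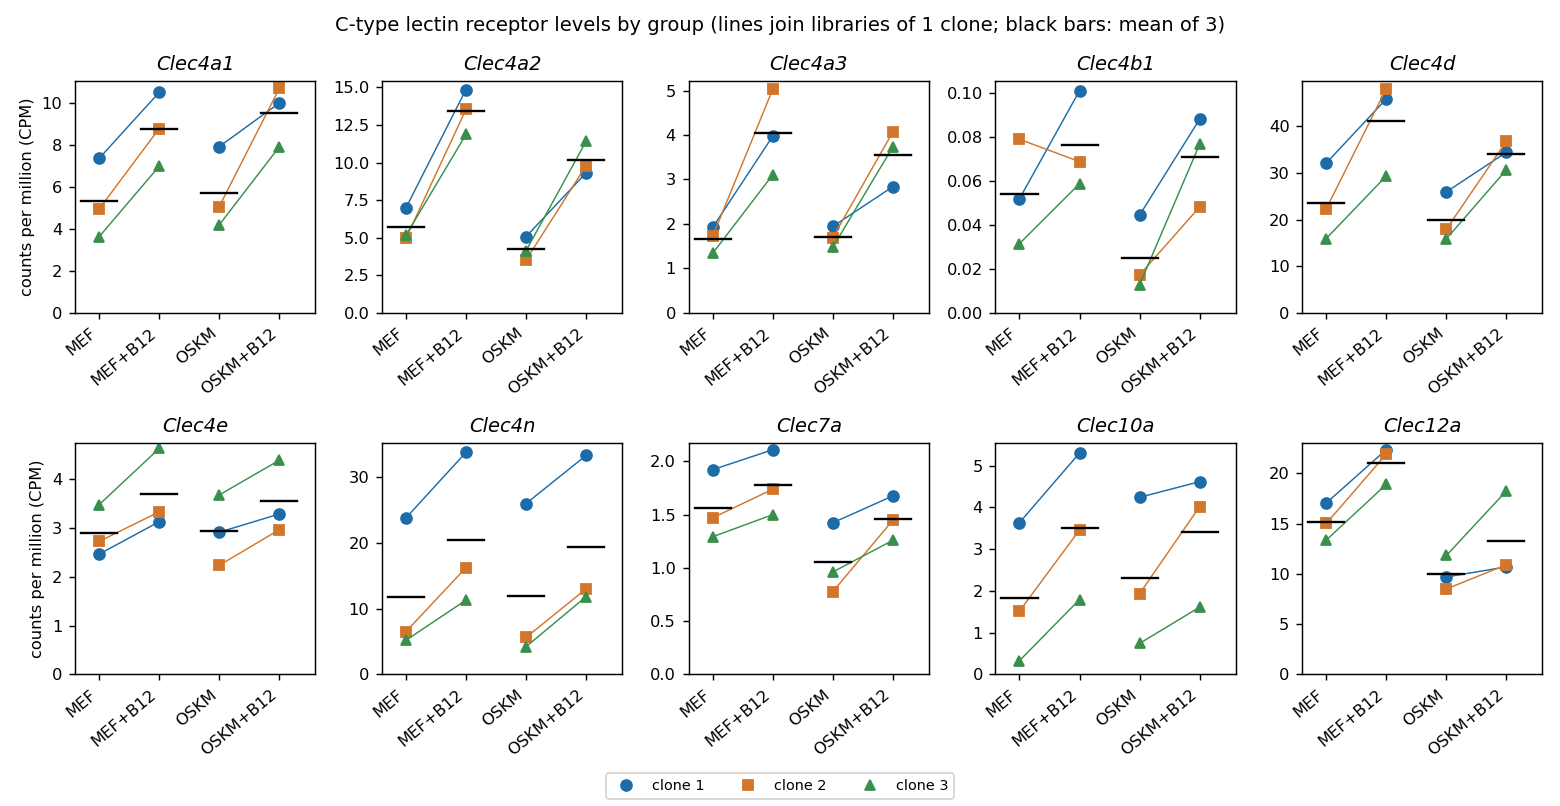
CPM of the 10 receptors in the 4 groups, on linear axes that start at 0. Points are libraries, coloured by clone, lines join libraries of the same clone and state without and with B12, and black bars give the mean of 3. The lines of every receptor except Clec4b1 rise in every clone, and Clec4b1 in uninduced clone 2 falls.

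Across the group, 4 receptors passed the adjusted threshold of 0.05 for a higher level with B12 in induced cells, where 1.05% of all genes tested did so. These were Clec4a1, Clec4a2, Clec4a3 and Clec4d, and Clec4n was the fifth in uninduced cells, where 1.37% of all genes passed. For the average of both states 6 receptors passed, with Clec10a in addition, against 3.46% of all genes, and the median log2 difference was 0.81 over the 9 receptors tested and -0.013 over all genes tested. Since the group was selected on this comparison, nothing is read from these counts. In either direction, 204 genes in all passed in induced cells, 264 in uninduced cells and 736 on average. Without clone 2, 0 receptors of 0 genes passed in each state and 1 of 34 on average. Without clone 3 the counts were 0 receptors of 13 genes in induced cells, 1 of 29 in uninduced cells and 5 of 317 on average. With clone 1 left out, which leaves the 2 clones of one title year, they were 5 of 224, 6 of 253 and 6 of 525. Without only the OSKM library of clone 1 they were 5 of 140, 5 of 334 and 7 of 785. Clec4n was then also called in induced cells and Clec4e on average.

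The macrophage markers were higher with B12 as well. Their sum differed by 0.183 to 0.703 on the log2 scale over the 6 pairs, with a mean of 0.501, and 12 of the 14 markers rose on average over both states, among them Fcgr1 (0.95 ± 0.10, adjusted p = 0.00044), Csf1r (0.71 ± 0.08, adjusted p = 0.000773), Cd68 (0.67 ± 0.11, adjusted p = 0.00429) and Adgre1 (0.63 ± 0.07, adjusted p = 0.000778). Each receptor was therefore also set against the marker sum within each pair, as a description. Lyz2 had the largest share of this sum, at a mean of 1182 CPM over the libraries, and values without it are given below. Clec4a2 exceeded the marker sum by 0.754 ± 0.0805 on the log2 scale (mean ± SD, 6 pairs) and Clec4a3 by 0.643 ± 0.182, in 6 of 6 pairs each. Clec4n (0.495 ± 0.287), Clec4d (0.314 ± 0.108) and Clec4a1 (0.264 ± 0.107) also exceeded it in 6 of 6 pairs. Clec10a did so in 5 of 6, by 0.547 ± 0.643.

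Clec4b1, with few counts, differed from the marker sum by 0.115 ± 0.521, with 4 of 6 pairs above it. Clec4e, Clec7a and Clec12a were below it on average. Clec4e differed from it by -0.191 ± 0.159, with 0 of 6 pairs above it. Clec7a differed by -0.159 ± 0.221 and Clec12a by -0.0748 ± 0.141, each with 2 of 6 pairs above. The part of macrophage content in the B12 differences was not tested.

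**Figure D3:**
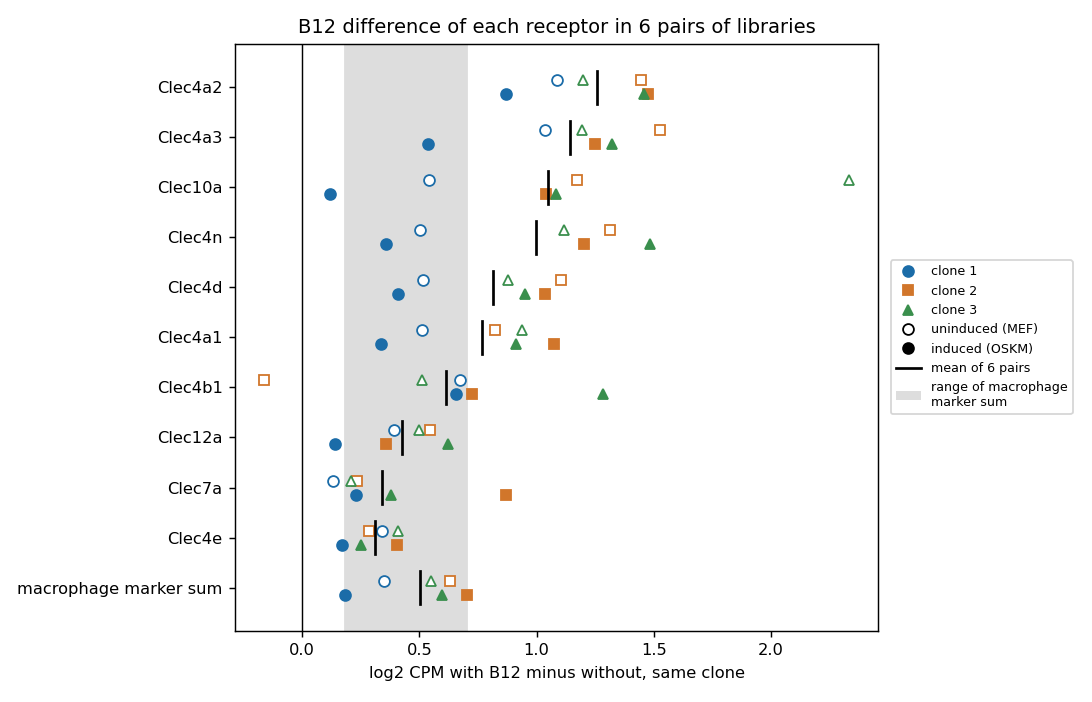
Difference in log2 CPM with B12 minus without B12 for each receptor in 6 pairs of libraries of the same clone, with open symbols for uninduced and filled symbols for induced cells. The grey band is the range of the macrophage marker sum, from 0.183 to 0.703, and the black bars are means of 6 pairs. Clec4a2 lies wholly to the right of the band.

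Whether the B12 difference depended on induction was tested by the interaction, which is the B12 difference in OSKM minus that in MEF. It passed for 0 of the 9 receptors with edgeR, where 0% of all genes passed, and 0 receptors had an unadjusted p under 0.05 while 273 of all genes did. DESeq2 called 0 receptors too. The estimates ranged from -0.44 ± 0.39 for Clec10a to 0.28 ± 0.22 for Clec7a, and that of Clec4a2 was 0.03 ± 0.19.

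Whether the B12 difference depended on the clone was tested in the same way. It passed for 0 of the 9 receptors and for 0% of all genes, and DESeq2 also called 0. Unadjusted p-values under 0.05 were found for 4 of the 9 receptors, Clec4n, Clec10a, Clec4a1 and Clec4d, against 1.18% of all genes tested. In these 4 genes clone 1 had the smallest B12 differences, for example 0.50 and 0.36 for Clec4n in uninduced and induced cells, against 1.11 to 1.48 in clones 2 and 3. The macrophage marker sum likewise differed least in clone 1, by 0.347 and 0.183. The test of 3 of the 14 macrophage markers had an unadjusted p under 0.05.

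Induction of the factors was compared without and with B12. In both comparisons 0 of the 9 receptors passed with edgeR, where 0.073% of all genes passed without B12 and 0.104% with it. Unadjusted p-values under 0.05 were found for 3 receptors without B12 (Clec4a2, Clec7a and Clec12a), where 19% of all genes had them. With B12 they were found for 2 receptors (Clec4a2 and Clec12a) and 14.9% of all genes. DESeq2 called 1 receptor in each, Clec12a, among 487 genes without B12 and 416 with it. The mean of both comparisons, added after these results were seen, passed for 3 receptors, all lower in induced cells, where 5.26% of all genes were lower and 4.46% higher.

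Clec12a fell by 0.65 ± 0.13 on the log2 scale with induction (edgeR, adjusted p = 0.0219). Clec7a fell by 0.42 ± 0.11 (adjusted p = 0.0361) and Clec4a2 by 0.41 ± 0.10 (adjusted p = 0.0302). All 3 receptors were lower in 6 of 6 pairs, which are 2 pairs from each of 3 embryos. The fit counted the 2 pairs of an embryo as separate. For Clec12a they were alike, at -0.81 and -1.06 in clone 1, -0.82 and -1.004 in clone 2, and -0.18 and -0.05 in clone 3. The SE and adjusted p of Clec12a therefore understate its spread over embryos. The other 6 receptors ranged from -0.23 ± 0.10 for Clec4d to 0.18 ± 0.19 for Clec10a. The median was -0.09 over the 9 receptors and -0.0028 over all genes. All 3 calls were lost without clone 1 and without clone 2, and Clec7a also without clone 3. Over all genes the number called went from 1865 to 10 without clone 1 and to 3 without clone 2, while the log2 difference of Clec7a was -0.45 and -0.36 there, and that of Clec12a -0.50 and -0.51. The difference of Clec10a was 0.066 without the OSKM library of clone 1, and that of Clec4d -0.35 without clone 3. The macrophage markers had a median of -0.18, with 4 of 14 above 0. Of these, 4 of 14 fell, among them Aif1 (-0.51 ± 0.13, adjusted p = 0.0361), Csf1r (-0.31 ± 0.08, adjusted p = 0.0409) and Adgre1 (-0.27 ± 0.07, adjusted p = 0.0465), and Itgam rose (0.37 ± 0.10, adjusted p = 0.0389). Set against the marker sum in the 6 pairs, Clec12a differed by -0.529 ± 0.302 and Clec4a2 by -0.286 ± 0.0832 (mean ± SD), both lower in 6 of 6 pairs, and Clec7a by -0.304 ± 0.243, lower in 5 of 6. Clec4a1 differed by 0.248 ± 0.102 and was higher than the sum in 6 of 6 pairs.

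The response to induction differed between clones for 1 of the 9 receptors, Clec12a (adjusted p = 0.0263), where 2.15% of all genes passed. Without B12, induced cells differed from uninduced cells by -0.81 in clone 1, -0.82 in clone 2 and -0.18 in clone 3 on the log2 scale. With B12 the values were -1.06, -1.004 and -0.05. The difference was thus large in clones 1 and 2 and small in clone 3, the clone with the low Pou5f1 level. Of the macrophage markers, 1 of 14 passed this test, Adgre1 (adjusted p = 0.0295), and the marker sum differed with induction by -0.334 to -0.132 in clones 1 and 2 and by 0.0228 and 0.0672 in clone 3. The part of factor level or of macrophage content in the Clec12a result was not tested. The call was lost without clone 3 and without clone 2, which leaves 2 clones.

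**Figure D4:**
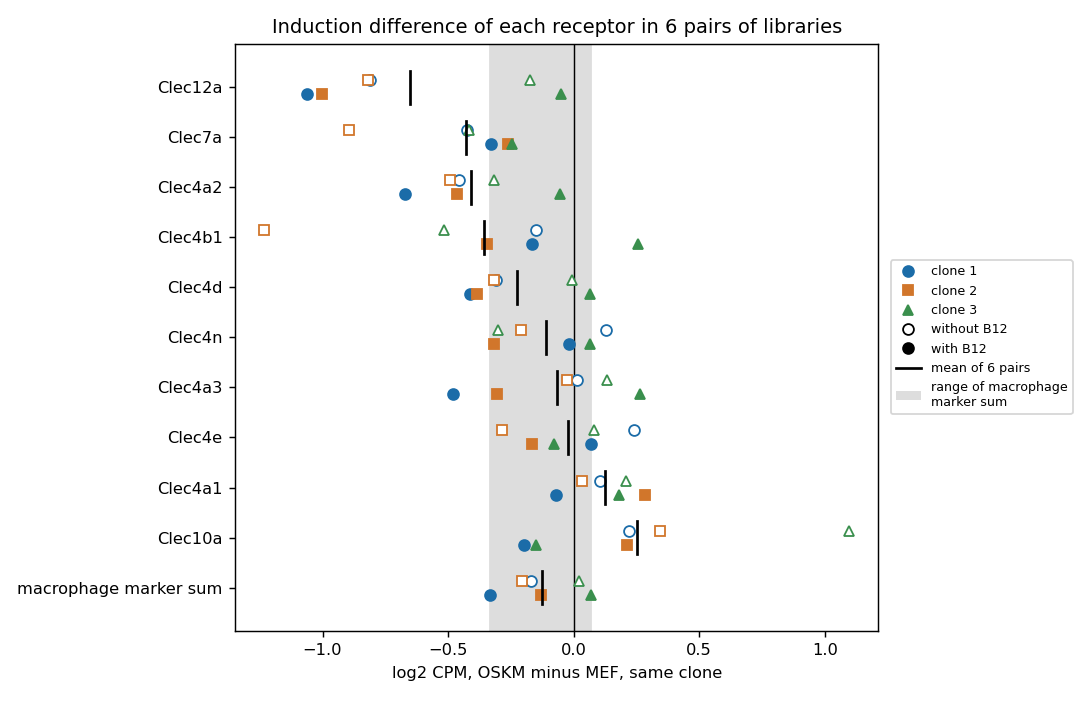
Difference in log2 CPM of OSKM minus MEF for each receptor in 6 pairs of libraries of the same clone, with open symbols without and filled symbols with B12. The grey band is the range of the macrophage marker sum and black bars are means of 6 pairs. For Clec12a, clones 1 and 2 lie between -1.06 and -0.81 and clone 3 between -0.18 and -0.05.

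Levels differed between clones for 6 of the 9 receptors, where 37.8% of all genes passed. Clec4n had the smallest adjusted p (2.3e-05), with means over 4 libraries of 29.2, 10.4 and 8.14 CPM in clones 1, 2 and 3. Clec10a had means of 4.45, 2.73 and 1.12 CPM (adjusted p = 0.000275). Both were highest in clone 1 and lowest in clone 3, in the same order as Clec4a1, with 8.95, 7.37 and 5.68 CPM (adjusted p = 0.00229), Clec4d, with 34.6, 31.3 and 22.99 CPM (adjusted p = 0.00665), and Clec7a, with 1.78, 1.36 and 1.25 CPM (adjusted p = 0.0195).

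Clec4e ran the other way, with 2.94, 2.81 and 4.03 CPM in clones 1, 2 and 3 (adjusted p = 0.003). Clec4a2 (9.06, 7.95 and 8.14 CPM, adjusted p = 0.208), Clec4a3 (2.67, 3.13 and 2.41 CPM, adjusted p = 0.21) and Clec12a (15.0, 14.1 and 15.6 CPM, adjusted p = 0.522) did not pass. Among the macrophage markers 10 of 14 passed. With clone 1 left out, Clec4a1, Clec4d, Clec4e, Clec4n and Clec10a still passed and Clec7a did not. The same 5 receptors passed without only the OSKM library of clone 1, where 6994 of all genes did, and Clec7a was lost. Between clones 1 and 2 alone, Clec4n and Clec10a passed.

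The signalling partners of the receptors were examined with B12, averaged over both states. Of 15 adaptors and kinases tested, 11 rose and 0 fell, with a median of 0.50. Among them were the kinase Btk (0.76 ± 0.09, adjusted p = 0.000658), the exchange factor Vav1 (0.71 ± 0.07, adjusted p = 0.000323), both of blood cells, and the scaffold Card9 (0.66 ± 0.10, adjusted p = 0.00375). The adaptor Fcer1g (0.48 ± 0.10, adjusted p = 0.0234) and the kinase Syk (0.50 ± 0.06, adjusted p = 0.000662) are named for their place in the pathway, after their values were seen. Card9, Fcer1g and Syk lay within the range of the macrophage marker sum over pairs, and Btk and Vav1 lay above it.

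Of the 3 inhibitory phosphatases, 2 rose, Inpp5d (0.84 ± 0.06, adjusted p = 7.45e-05) and Ptpn6 (0.62 ± 0.09, adjusted p = 0.0019), while Ptpn11, which most cell types express, was at 165 to 198 CPM with a difference of -0.04. Among 13 myeloid transcription factors, 5 rose and 0 fell, led by Tfec (1.08 ± 0.16, adjusted p = 0.00255), Irf5 (0.80 ± 0.09, adjusted p = 0.000742), Spi1, which encodes PU.1 (0.66 ± 0.09, adjusted p = 0.00171), and Irf8 (0.44 ± 0.08, adjusted p = 0.00761). Of 9 tested genes that these receptors are known to switch on, 2 rose, the cytokine gene Tnf (0.91 ± 0.12, adjusted p = 0.00135) and the inflammasome sensor Nlrp3 (0.83 ± 0.09, adjusted p = 0.00042). Cxcl1 (0.07 ± 0.10, adjusted p = 0.794) and Ptgs2 (0.0006 ± 0.19, adjusted p = 0.999) did not pass. None of 4 self ligands, 9 fibroblast markers, 3 tested dendritic cell markers and 3 tested monocyte markers passed in this comparison.

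Other C-type lectins gave a comparison by family. Of 20 further lectins of myeloid cells, 6 were tested, of which 2 rose with B12 on average, the mannose receptor Mrc1 (0.86 ± 0.08, adjusted p = 0.000206) and Clec5a (0.54 ± 0.09, adjusted p = 0.00763), and 6 had 0 counts in all libraries. Clec4a4, a further paralogue of Clec4a2, reached at most 0.169 CPM, and Mgl2, the near copy of Clec10a, at most 0.549 CPM. Of 19 tested lectins that were listed here as non-myeloid, 1 rose, Cd93 (0.42 ± 0.06, adjusted p = 0.00266), and the median difference was -0.10. Which cells of the cultures expressed Cd93 was not tested. The most abundant of them, Cd248 (-0.09 ± 0.04, adjusted p = 0.323), Colec12 (-0.02 ± 0.04, adjusted p = 0.885) and Mrc2 (-0.12 ± 0.05, adjusted p = 0.3), did not pass.

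The receptors did not share a single profile over the 12 libraries. As a description over libraries that share clones and groups, log2 CPM of Clec4a1 and Clec4d correlated with r = 0.921 and that of Clec4a2 and Clec4a3 with r = 0.916, while Clec4e had r between -0.306 and 0.493 with the other receptors. With the macrophage marker sum, r was 0.965 for Clec4d, 0.940 for Clec4a1, 0.914 for Clec4n, 0.888 for Clec10a, 0.821 for Clec7a, 0.790 for Clec4a2, 0.788 for Clec4a3, 0.462 for Clec12a and -0.0412 for Clec4e.

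The genes most like each receptor over the 12 libraries differed accordingly. Clec4a1 was most like C1qc and C1qb, complement genes of macrophages, with r = 0.983 and 0.982, and Clec4d most like Cd200r1 (r = 0.986). Clec4n was most like Aoah, Tnf and Ccl3 (r from 0.981 to 0.983), Clec4a2 like Cd180 (r = 0.985) and Pik3ap1 (r = 0.982), and Clec10a like Folr2 (r = 0.969). The nearest genes to Clec4a3, Clec12a, Clec7a and Clec4e were Hpgds (r = 0.971), Slc9a3r1 (r = 0.970), Arid3a (r = 0.943) and Lrrc8d (r = 0.925), in falling order of likeness.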

How the data were processed

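RNA from 12 cultures was sequenced as strand-specific poly(A) libraries. The authors aligned read pairs with STAR 2.5.2 (submitters' processing notes) to GRCm38. They used featureCounts with reverse strand to assign pairs to genes. The deposited table holds raw counts by gene, summed over the flow cells of a library. The labels' doxycycline concentration is given here, from which the study's methods differ. Symbols and coordinates came from GENCODE M21, which matched 55480 of 55573 identifiers. Promoter sequences are from RefSeq (GRCm38.p6), and they covered 8 of the 10 receptors.

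CPM were derived from the deposited counts using TMM factors (0.934 to 1.06), log2 CPM with a prior count of 2, and RPKM with merged exon length. Genes were tested with edgeR 4.0.16 (quasi-likelihood F test) after filterByExpr, with group and clone as terms, over 19174 genes, with Benjamini-Hochberg adjustment and a threshold of 0.05. Clone and its products with state or B12 were tested by F tests. Alternatives were DESeq2 1.42.0 in R 4.3.3, its size factors, library totals, other filters, no block, fits to the libraries compared and leaving out clones or a library. The clone served as a block, since the 4 groups were split from the same embryos. Deviations from the group means were shared within clones (r from 0.27 to 0.687 for the 18 pairs from one clone and no higher than 0.17 for pairs that differed in clone and group). No 2 libraries were identical. The biological coefficient of variation was 8.04%. Counts carry no molecular identifiers, so depth covers counting error only. P-values of the group comparisons rest on how differences between groups varied over the 3 embryos, since the block removes level differences between embryos. The B12 average and the induction average use 2 pairs of libraries from each embryo, which the fit counted as separate. Where an embryo responds alike in both pairs, their SEs and p-values can be too small as a measure of the spread over embryos. No group had a repeat culture of the same embryo. In the tests between clones, differently treated libraries of a clone therefore stood in for its replicates. For the induction response these were the libraries without and with B12 of each state. P-values of those tests do not measure the spread between embryos.

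The receptors and gene lists were chosen with earlier results of these data known. All receptors are named. Of each other list, up to 4 genes are named, those past the threshold with the largest difference and then the most abundant. A gene that this rule selects is not reported here. Like genes were ranked by Pearson's r among tested genes with a mean log2 CPM of at least 1. The scripts were tested on simulated data.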

Additional observations from a re-analysis of the deposited data

Results flagged for a closer look

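The response of Clec12a to induction differed between the 3 clones by a test of the difference itself (edgeR, F test over the clone by state terms, adjusted p = 0.02632). Over 9 alternatives its adjusted p ranged from 5.1e-06 to 0.979, and 7 of 9 called it. The highest value was that without clone 3, where clones 1 and 2 alone were compared. No other receptor passed a test of a difference between clones or states in its response.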

How the results depend on the processing

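Without the replicate block, 0 receptors passed for B12 in induced cells, 0 in uninduced cells, 2 (Clec4a2 and Clec4a3) for the B12 average and 0 for the induction average, against 4, 5, 6 and 3 with it. Over all genes the calls without it were 0, 0, 90 and 0, against 204, 264, 736 and 1865. The pairing by embryo is part of the design. Leaving out each clone, or the OSKM library of clone 1, gave 0 to 5 receptors for B12 in induced cells, 0 to 6 in uninduced cells, 1 to 7 for the B12 average, 0 to 3 for the induction average, 0 to 1 for induction without B12 and with B12, 2 to 6 for the level between clones and 0 to 1 for the induction response between clones. DESeq2 and no filter each gave 1 receptor for induction without B12 and 1 with it, against 0. Over all genes DESeq2 called 487 and 416 there and no filter 681 and 646, against 14 and 20. The fit to the 6 libraries compared gave 2 for B12 in induced cells, Clec4a2 and Clec4d. Without the most abundant marker, Lyz2, the B12 differences of the receptors from the macrophage markers were all lower. They were 0.668 for Clec4a2, 0.556 for Clec4a3, 0.461 for Clec10a, 0.409 for Clec4n, 0.228 for Clec4d, 0.178 for Clec4a1 and 0.0279 for Clec4b1. Those of Clec12a, Clec7a and Clec4e were -0.161, -0.245 and -0.277. The small induction differences of Clec4a3 and Clec4e changed sign in some settings, from -0.191 to 0.0141 for Clec4a3 and from -0.104 to 0.0796 for Clec4e when libraries were left out, and to 0.0261 for Clec4e with library totals. Among these alternatives the cause of a change was not tested. The average B12 difference of the 9 receptors kept its direction in the alternatives in which it was fitted. These fits reuse the libraries on which the group was selected, so nothing is read from this. The counts of Clec4b1 were too low for it to be tested.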
